A study of Caenorhabditis elegans with 15 samples.

Results

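Splice site choice was compared between 2 C. elegans strains with missense mutations in spliceosomal factors, KIN17(K23N) and PRCC(I371F). All alternative splicing events with a value in each of the 6 libraries were taken, 31494 of the 40212 events measured in the series. They comprised 16235 events with alternative 5' splice sites, 12926 with alternative 3' splice sites and 2333 from 6 classes of annotated events. The measure was percent spliced in (PSI), here the percentage of use of the downstream site in a 5' event, of the upstream site in a 3' event, and of the included form in an annotated event. A difference is PRCC(I371F) minus KIN17(K23N), in percentage points of PSI.

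The KIN17(K23N) strain, SZ345, carried unc-73(e936az30) and dxbp-1(az121), both on chromosome I, with smg-4(az152) on chromosome V, and gave libraries 4 to 6. The PRCC(I371F) strain, SZ346, carried prcc-1(az122) on chromosome IV with smg-4(az152), and gave libraries 7 to 9. The smg-4 control strain SZ340 carried smg-4(az152) alone (libraries 1 to 3), and 2 further mutant strains, KIN17(M107I) with unc-73(az63) and dxbp-1(az52) and PRCC(null) with prcc-1(gk5556), had the same smg-4 allele. The 3 libraries of a strain came from separate RNA isolations of mixed-stage whole worms. Each mutant strain was a single edited line, so that any other difference between the lines cannot be told apart from the named mutation. This applies to unc-73 above all, whose allele differed between the strains compared.

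KIN17, encoded by dxbp-1, and PRCC, encoded by prcc-1, are proteins found in the spliceosome around the step at which it becomes active. By then the 5' end of the intron has been handed over from U1 to U6 snRNA, and the exact nucleotide at which the intron starts has to be kept. Most introns start with /GU, where the slash marks the splice site, and end with AG/. Loss of smg-4 disables nonsense-mediated decay, so that transcripts with a shifted reading frame are kept in the RNA pool.

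The sequences of the 5' sites that carried the clearest differences are shown first, in 2 groups by the direction of the difference, so that the start of the intron can be read beside it. Each starts at the first nucleotide of the intron cut at the upstream site, and the capitals mark the first nucleotides of the intron cut at the downstream site (T stands for U of the RNA). They were taken from the study's list of affected introns and placed by position in ce10. In the first group the downstream site was used more in PRCC(I371F), and introns of the chromosome that holds dxbp-1 are not shown.
M60.6: gtGTgaccgtatt
T21H3.9: gTTagttatttag
F09E5.8: gTTagttctgatg
spe-39: gTTagctattaaa
rars-2: gTTagttaataca
tsct-2: gtGCgagtagata
slc-36.1: gtGTgaaaaactg
prx-19: gtaaGTtttaaat
In the second group the downstream site was used more in KIN17(K23N), and dhp-2 starts with the same 6 nucleotides as M60.6 and slc-36.1 of the first.
pept-2: gGTtgttattgat
cbs-1: gGTaggaaatggg
Y54G2A.36: gGAtagtttatcg
F40A3.1: gcagGTaattcaa
dhp-2: gtGTgagtccaac
The events, each an intron with the ends of the exons beside it, lie in ce10 on the plus strand at chrII:5350962-5351148 (F09E5.8), chrV:6786092-6786276 (spe-39), chrII:6125701-6125884 (rars-2), chrII:13387429-13388477 (tsct-2), chrIII:13308996-13309460 (slc-36.1), chrIV:10792913-10793090 (pept-2), chrX:10054874-10055050 (cbs-1), chrIV:2901029-2901208 (Y54G2A.36), chrV:7894478-7894654 (F40A3.1) and chrIV:9978184-9978366 (dhp-2). On the minus strand they lie at chrX:8250261-8250684 (M60.6), chrV:17655665-17655863 (T21H3.9) and chrIII:8808975-8809178 (prx-19).

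At most named 5' events the downstream site was used more in PRCC(I371F) than in KIN17(K23N). In M60.6 the downstream /GU site 2 nt into the intron had a PSI of 11.9, 8.89 and 10.96% in the KIN17(K23N) libraries and of 52.9, 59.6 and 60% in the PRCC(I371F) libraries. The smg-4 control libraries were at 0.00, 1.61 and 2.97%. The 2 mutant strains did not overlap, and every KIN17(K23N) library lay above every control library.

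Over all 5' events the study's pairwise rule, which asks for all 9 differences between libraries to exceed 15 points in one direction and for their mean to exceed 20 points, was passed by 190 of 16235 events (1.17%). The downstream site was higher in PRCC(I371F) in 111 of them (0.684% of the events) and in KIN17(K23N) in 79 (0.487%). The test used here was limma on the log2 ratio of both forms, and asked for a mean difference over 20 points besides an adjusted p (Benjamini-Hochberg) below 0.05. It called 117 of 15247 events tested (0.767%), 69 with the downstream site higher in PRCC(I371F) (0.453%) and 48 with it higher in KIN17(K23N) (0.315%). Both criteria were met by 93 events, of which 55 were higher in PRCC(I371F) and 38 in KIN17(K23N). The share of calls higher in PRCC(I371F) was 59.0%, with a 95% Wilson interval of 49.9 to 67.5% that covers counting error only. The interval takes the calls as independent, although some share a locus, as at chrII:1481530-1484158.

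Of the 117 calls, 88 had a PSI of exactly 0 or 100% in all 3 libraries of one strain, as 5558 of the 15247 events tested did. The tables give no reads, so how many reads stand behind such a value is unknown. With a KIN17(K23N) library left out limma called 2 5' events without library 4, 6 without library 5 and 6 without library 6, against 116 to 142 without a PRCC(I371F) library. By the pairwise rule 285 to 326 5' events passed with any 1 library left out, when fewer differences have to pass. When all 15 libraries of the series were fitted together, 114 5' events were called, 63 of them among the 117.

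Among the few events that passed, the split between the directions varied with the distance between the sites. At sites 1 nt apart, 32 events passed the pairwise rule with the downstream site higher in PRCC(I371F) and 11 with it higher in KIN17(K23N), out of 3599 events. At 3 nt the order was turned round, with 1 event against 14 out of 1030, although over all 1030 events 626 had a higher mean in PRCC(I371F) and 356 in KIN17(K23N). At 2 nt there were 15 against 10 out of 1132 events, and at 4 nt 4 against 8 out of 4291 (2791 against 1086 over all events). At 5 nt there were 9 against 3 out of 911, at 6 to 9 nt 16 against 9 out of 1310. At 10 to 50 nt there were 34 against 24, out of a larger set of 3962 events. The limma calls had the same order at 1 nt (25 against 4) and 3 nt (3 against 13), and were 5 against 5 at 4 nt.

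**Figure D1:**
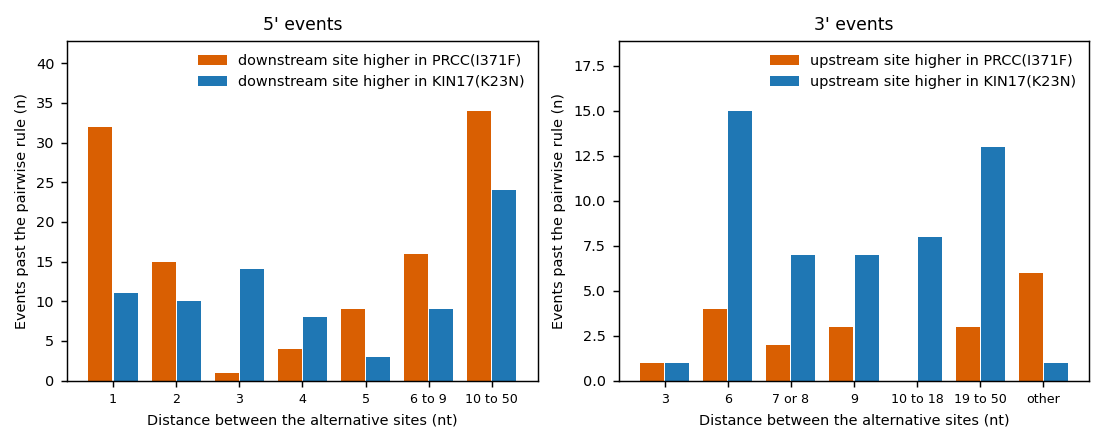
Number of events past the pairwise rule (y axis) by the distance between the alternative sites in nt (x axis), for 5' events on the left and 3' events on the right, with bar colour giving the strain in which the named site was higher. At 5' sites 1 nt apart 32 events were higher in PRCC(I371F) and 11 in KIN17(K23N), whereas at 3' sites 6 nt apart 4 were higher in PRCC(I371F) and 15 in KIN17(K23N).

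A gene could be named for 129 of the 5' events outside unc-73, all at introns that the study listed because they differed between a mutant and the control in these libraries. Their direction is therefore no independent evidence, and it is given as a description. Of these events 114 had a higher mean in PRCC(I371F), 14 had a higher mean in KIN17(K23N) and 1 was equal, with a median difference of 9.22 points, against a median of 0.18 points over all 5' events tested. In 92 of them every PRCC(I371F) library lay above every KIN17(K23N) library, and in 9 the reverse held. The pairwise rule was passed by 28 in the first direction and 8 in the second, and limma called 18 and 5.

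Among these named introns the largest group had a /GU site followed 1 nt later by a /UU site, as in T21H3.9 and F09E5.8. Use of the /UU site was higher in PRCC(I371F) in 54 of 55 such events, by a median of 17.8 points, and 17 passed the pairwise rule. Their median PSI was 0.27% in the control, 3.15% in KIN17(K23N) and 20.1% in PRCC(I371F). In T21H3.9 the /UU site was used at 17.95, 10.3 and 15.1% in KIN17(K23N) and at 56.4, 54.5 and 50.7% in PRCC(I371F), a difference of 39.5 points (limma adjusted p = 0.042). In F09E5.8 the values were 2.49, 4.05 and 2.93% against 35.8, 43.7 and 37.3% (limma adjusted p = 0.020).

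The genes of this group have diverse roles. In spe-39, which acts in vesicle traffic and is required for sperm formation, the /UU site had a mean PSI of 2.74% (SD 0.9997) in KIN17(K23N) and 35.9% (SD 3.06) in PRCC(I371F), over 3 libraries each. In rars-2, an arginyl tRNA synthetase, it had 6.65 ± 2.84% and 39.6 ± 1.80%. The importin imb-3, the replication licensing factor cdc-6 and the recombination gene rad-54.L, all on chromosome I, differed by 35.4, 21.04 and 29.1 points. W05F2.6 differed by 37.4 points, with 8.93, 5.31 and 6.25% in KIN17(K23N) against 43.3, 41.7 and 47.8% in PRCC(I371F). Each of these 6 genes was called by limma and passed the rule, and each control mean was under 5%.

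A second group had the sites in the opposite order, with a /GG dinucleotide 1 nt upstream of a /GU site. Here the downstream /GU was the main site of the control and lost use in PRCC(I371F). It was higher in KIN17(K23N) in 6 of 7 events, 5 of which passed the pairwise rule and 2 of which limma called, and their median difference was −24.7 points. In pept-2, an oligopeptide transporter, the downstream site had a PSI of 94.3, 97.3 and 90.1% in KIN17(K23N) and of 41.4, 39.5 and 44.7% in PRCC(I371F), with 98.1, 99.0 and 95.2% in the control. In cbs-1, a cystathionine beta-synthase, it had 97.3, 94.7 and 98.2% against 61.9, 64.2 and 67.4%. In both genes the PRCC(I371F) libraries thus cut upstream, at /GG, in a large share of the transcripts, and the KIN17(K23N) mean stayed within 5 points of the control mean. The limma adjusted p was 0.030 for pept-2 and 0.032 for cbs-1.

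Y54G2A.36 was alone among the named events in being listed with /GG 1 nt upstream of /GA. Its downstream site had 93.6, 94.9 and 92.7% in KIN17(K23N) and 60.5, 57.9 and 52.9% in PRCC(I371F). The control had 98.3, 97.4 and 98.5%, so that /GA would be its main site. This sequence was taken as the study listed it and was not checked against the genome. F40A3.1 had /GC 4 nt upstream of /GU, and its downstream /GU was used at 100% in each KIN17(K23N) library and at 74.2, 82.5 and 70.9% in PRCC(I371F). In both the strain differences went the way of pept-2, and neither strain overlapped the other.

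At pairs of /GU sites 2 nt apart the downstream site was mostly, but not always, higher in PRCC(I371F). Of 25 such named events 22 were higher in PRCC(I371F), by a median over the group of 10.1 points, and 6 passed the rule in this direction. One passed it in the other, in the dihydropyrimidinase gene dhp-2, where the downstream site had 95, 97.1 and 96.7% in KIN17(K23N) and 72.6, 73.3 and 79.8% in PRCC(I371F). In slc-36.1, an amino acid transporter, the downstream site rose from 0.00, 2.27 and 0.00% to 25.8, 30.8 and 26.98%. In tsct-2 the downstream site starts with GC, and it had 13.7, 9.17 and 8.82% against 37.5, 43.4 and 43.02%.

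A further pair of such introns was set apart by its KIN17(K23N) values. The paper's text gives one of them, spas-1, as a /G/UU intron, whereas the sites of the event used here lay 2 nt apart. In the chromodomain gene cec-10, with an intron of 2001 nt, the downstream site had 2.82, 0.00 and 2.63% in the control, 40, 42.3 and 41.7% in KIN17(K23N) and 74.8, 79.3 and 74.5% in PRCC(I371F). It passed the rule, with a difference of 34.8 points, but not the limma test (adjusted p = 0.059). In spas-1, the gene of the microtubule-severing protein spastin, the control was at 0.00% in each library, KIN17(K23N) at 34.5, 38.9 and 27.5% and PRCC(I371F) at 32.9, 40.8 and 54%. The mutants overlapped in spas-1, and their means differed by 8.90 points, and by 5.84, 13.7 and 3.18 points without libraries 6, 7 and 9 (limma adjusted p = 0.62, exact two-sided permutation p = 0.3). In these 2 genes both mutants stood apart from the control, unlike in pept-2 or slc-36.1. Both mutants also lay above the control in M60.6, T21H3.9 and W05F2.6, at lower KIN17(K23N) levels, so that this trait was not particular to cec-10 and spas-1.

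Of 7 named introns with a second /GU site 4 nt downstream all had a higher mean in PRCC(I371F), and 3 passed the rule. In prx-19, which brings membrane proteins to peroxisomes, the downstream site had 2.45, 2.56 and 1.33% in KIN17(K23N) and 32.8, 28.8 and 26.9% in PRCC(I371F). The fatty acid synthase gene fasn-1 and F10D11.2 differed by 28.03 and 38.4 points. The 15 named events with sites 3 nt apart had a median difference of 7.32 points and none passed the rule, and all 15 named events with sites 4 nt apart had a median of 3.38 points.

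**Figure D2:**
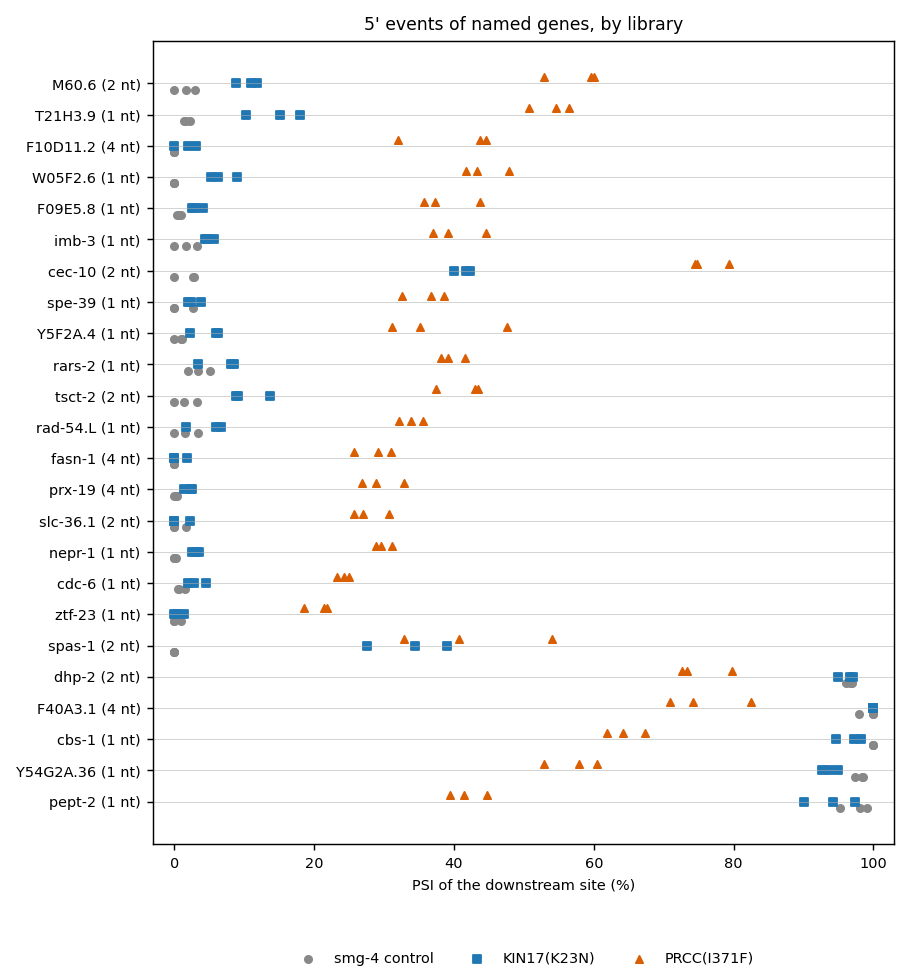
PSI of the downstream site in percent (x axis) of the named 5' events that both the pairwise rule and limma called, with cec-10 and spas-1 added (y axis, with the distance between the sites in nt). Each point is 1 library, and colour and shape give the strain. In pept-2 the 3 PRCC(I371F) libraries lie between 39.5 and 44.7% and the KIN17(K23N) libraries between 90.1 and 97.3%, next to the control.

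The 14 events with sites 3 nt apart and a higher downstream site in KIN17(K23N) included no named gene. The largest of those without a value of 0 or 100% in the 6 libraries, chosen after its values were seen, lay on the plus strand at chrX:6791502-6791685 (ce10). Its downstream site had 78.8, 88.6 and 83.3% in KIN17(K23N) and 24.4, 27.1 and 29.7% in PRCC(I371F), with 100, 96.4 and 80.95% in the control (limma adjusted p = 0.027). Of the KIN17(K23N) libraries 2 lay within the range of the control and 1 just below it, and the PRCC(I371F) libraries lay far below both.

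The largest differences that met both criteria were at events with few distinct values. At chrIII:13772773-13772953, with sites 5 nt apart, the downstream site was at 0% in the 3 KIN17(K23N) libraries and at 100% in the 3 PRCC(I371F) libraries. At chrIII:4714279-4714439 it was at 0, 0 and 33.3% against 100% in each library, and at chrIV:12704953-12705375 at 0% in each against 66.7, 100 and 100%. The event at chrIV:4389271-4389450, tied in size with these, was at 0% in each KIN17(K23N) library and at 100, 100 and 66.7% in PRCC(I371F), with 0% in each control library. In the other direction chrIII:4172838-4173010 went from 60, 100 and 100% in KIN17(K23N) to 0% in PRCC(I371F), chrV:19189750-19189936 from 100% to 33.3, 33.3 and 0%, and chrIV:15524736-15525713 from 100% to 58.3, 25 and 11.1%. Of these 7 events, 5 had no value in 1 or more control libraries or had control values more than 40 points apart.

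The number of 5' events at which both sites were seen also differed between the strains, over all events and not just the called ones. Among the 15572 5' events with a value in the 9 libraries of the control and both mutants, 56.2, 56.8 and 56.4% were at exactly 0 or 100% in KIN17(K23N) and 40.7, 36.98 and 40.001% in PRCC(I371F). The control had 63.7, 66.1 and 63.8%. Hence a second site was seen at more of the listed introns in PRCC(I371F) than in KIN17(K23N), and at fewest in the control. The authors listed alternative sites found over all libraries, with at least 5 reads of support in all samples together. A site used in PRCC(I371F) alone could thus enter the list through that strain. The direction of these shares is therefore no independent evidence, and it is given as a description.

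The gap was widest at close sites. At 1 nt, 61.9, 63.2 and 63.96% of 3513 events were at 0 or 100% in KIN17(K23N) against 35.4, 31.5 and 34.8% in PRCC(I371F), with 77.03 to 79.1% in the control. At 3 nt the means were 61.4 ± 1.95% and 33.6 ± 1.66% (SD, n = 3), and at 4 nt 62.7 ± 0.26% and 41.1 ± 2.71%. At 6 to 9 nt they were 47.4 ± 0.08% and 43.8 ± 1.84%, and at 10 to 50 nt 46.2 ± 1.39% and 41.0 ± 1.49%. The difference between the strains was −29.1 points at 1 nt and −5.16 points at 10 to 50 nt, and each exact two-sided permutation p was 0.1, the smallest that 3 against 3 libraries allow. A library read more deeply would show a second site at more introns, and how much of the gap depends on depth was not tested, since the tables hold no reads per event or per library. At 3' sites, measured in the same libraries, the shares were 45.7 ± 0.09% in KIN17(K23N) and 43.5 ± 1.68% in PRCC(I371F).

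The same asymmetry, with the same limit from the listing of sites, appeared event by event. Both sites were seen in all 3 PRCC(I371F) libraries and in no KIN17(K23N) library at 963 of the 16235 5' events, and the reverse held at 124. At 1 nt the counts were 376 and 14, and at 10 to 50 nt they were 75 and 40. For 3' events they were 234 and 131 of 12926.

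The mean level of the rarely used sites gave the size of this difference. Where the control mean was under 5%, a downstream site 1 nt away had a mean PSI of 0.98, 0.83 and 0.88% in KIN17(K23N) and of 3.59, 4.05 and 3.83% in PRCC(I371F), over 1942 events, with 0.20 to 0.28% in the control. At 2 nt the means were 2.54 ± 0.14% and 6.30 ± 0.23% (SD, n = 3). At 6 to 9 nt they were 2.97 ± 0.20% and 3.26 ± 0.46%, which overlapped (exact two-sided permutation p = 0.4). Where the control mean was over 95%, the downstream site 1 nt away fell short of full use more in PRCC(I371F), with 98.5 ± 0.05% against 99.4 ± 0.04%. Among the listed events, use of the minor site 1 nt away was thus higher in PRCC(I371F) whether it lay upstream or downstream. The limit from the listing of sites given above applies here too.

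**Figure D3:**
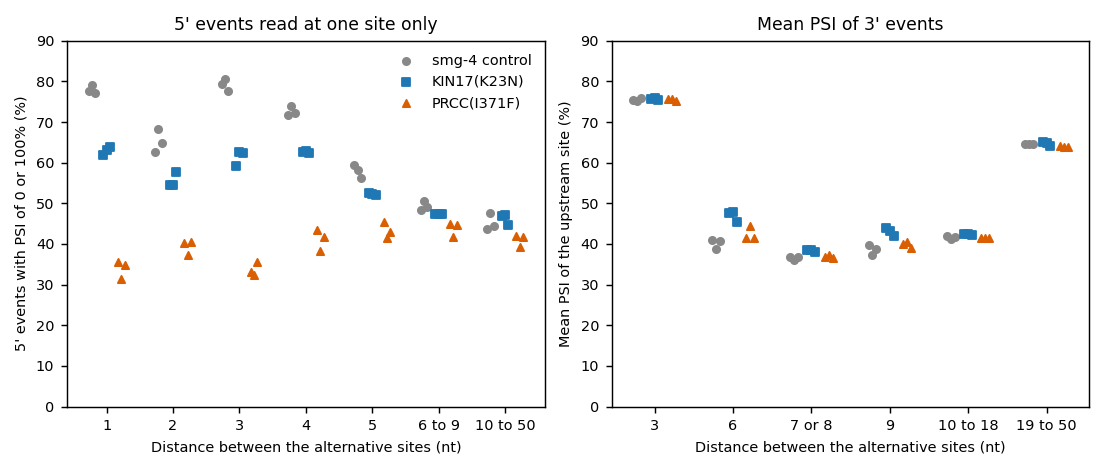
Left, percentage of 5' events with a PSI of exactly 0 or 100% and right, mean PSI of the upstream site of 3' events in percent (y axes), by the distance between the sites in nt (x axes). Each point is 1 library. At 5' sites 1 nt apart PRCC(I371F) lies at 31.5 to 35.4%, KIN17(K23N) at 61.9 to 63.96% and the control at 77.03 to 79.1%, while at 10 to 50 nt the strains lie close together, and at 3' sites 6 nt apart KIN17(K23N) has the highest means.

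At 3' sites the strain that lay further from the control was mostly KIN17(K23N). The pairwise rule was passed by 71 of 12926 events (0.549%), 52 with the upstream site higher in KIN17(K23N) (0.402%) and 19 with it higher in PRCC(I371F) (0.147%). At 6 nt 15 events were higher in KIN17(K23N) and 4 in PRCC(I371F), out of 1128 events. In the same order there were 7 and 2 of 1798 at 7 or 8 nt, and 7 and 3 of 932 at 9 nt. At 10 to 18 nt there were 8 and 0 of 2988, and at 19 to 50 nt 13 and 3 of 2001. At 3 nt the counts were 1 and 1 of 806. The remaining distances went the other way, with 1 and 6 of 3273. By limma 21 of 12156 events were called (0.173%), 12 higher in KIN17(K23N) (0.0987%) and 9 higher in PRCC(I371F) (0.074%). All 21 calls had one strain at 0 or 100% in each of its 3 libraries, and the majority among them changed side without library 4, 7 or 8, with 44.4, 48.7 and 45% of the calls higher in KIN17(K23N). The number of limma calls moved to 9 without library 4, 9 without library 5, 2 without library 6 and 39 without library 7. By the rule 138 to 209 3' events passed with 1 library left out, and in the fit of all 15 libraries limma called 37, of which 4 were among the 21.

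The 3' sites that carried the differences at named genes are shown next, as pairs of AG ends a few nucleotides apart. Each sequence runs from the last intron nucleotides before the upstream site to the end of the intron cut at the downstream site, and the capitals mark both AG dinucleotides.
atx-2: ttatgaAGctttgaAG
panl-3: ccaaaaAGttccAG
wshc-2: tttactAGctttcAG
phka-1: attgaaAGtgtttgtAG
spat-2: tccaacAGtttcAG
etr-1: gataaaAGtttttgcAG
ced-7: gtctaaAGtttcAG
eif-3.G: aaagaaAGtttcAG
In ce10 these events lie on the plus strand at chrIII:10467088-10467281 (atx-2), chrIII:9819793-9820145 (panl-3), chrX:14749826-14750011 (wshc-2), chrIII:11056111-11057252 (spat-2), chrII:167012-167970 (etr-1) and chrII:8442687-8442852 (eif-3.G), and on the minus strand at chrIII:8141888-8142072 (phka-1) and chrIII:9573492-9573677 (ced-7). In 6 of these 8 the upstream AG follows an A, in 6 the downstream AG follows a C, and 4 have both. Over the 81 named 3' events with such a sequence, A preceded the upstream AG in 51, T in 15, C in 12 and G in 3, while C preceded the downstream AG in 70.

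A gene was named for 122 3' events outside unc-73, again at introns the study had listed from these libraries. The upstream site had a higher mean in KIN17(K23N) in 119 of them and in PRCC(I371F) in 3, with a median difference of −17.95 points against −0.12 points over all 3' events tested. Every KIN17(K23N) library lay above every PRCC(I371F) library in 99 events and the reverse held in none. The medians were 30.9% in the control, 61.6% in KIN17(K23N) and 41.3% in PRCC(I371F). At 6 nt all 53 named events were higher in KIN17(K23N), and at 9 nt 33 of 34 were. The pairwise rule was passed by 13 and limma called none of the 122.

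The largest named difference was in atx-2, the gene of the RNA-binding protein ataxin-2, which acts in the germline. Its upstream site, 8 nt before the other, had 75.3, 74.5 and 68.5% in KIN17(K23N), 40.5, 49.0 and 31.1% in PRCC(I371F) and 26.6, 22.2 and 29.9% in the control, a difference of −32.6 points between the mutants with a limma adjusted p of 0.19. In panl-3, which encodes a subunit of the poly(A) nuclease, the values were 83.8, 79.4 and 73.6% against 47.4, 65.03 and 48.8%, with 40.5, 28.2 and 32.7% in the control. The mutants did not overlap in either gene, and PRCC(I371F) lay above the control in both. For panl-3 the smallest difference was below 15 points, so that it did not pass the rule.

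The other 12 named 3' events that passed the rule, all named after their values were seen, spanned −29.8 to −20.1 points. They included regulators and factors of several processes. In the translation initiation factor gene eif-3.G the upstream site had 46.2, 44.2 and 43.2% in KIN17(K23N), 21.98, 26.98 and 24.2% in PRCC(I371F) and 25.6, 15.7 and 27.5% in the control. In tdp-1, an RNA-binding protein, it had 76.97, 71.1 and 70.3% against 51.8, 51.1 and 48.3%. In both genes PRCC(I371F) overlapped the control and KIN17(K23N) lay above both.

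In etr-1, the gene of an RNA-binding protein of muscle, the upstream site had 54.7, 50.2 and 44.7% in KIN17(K23N), 25.8, 29.1 and 24.1% in PRCC(I371F) and 14.1, 9.5 and 17.2% in the control, so that all 3 strains were apart. In let-363, the TOR kinase gene, the upstream of 2 sites 12 nt apart had 71.0, 54.9 and 51.3% against 31.7, 34.4 and 36.0%. The values of spat-2 were 72.3, 70.8 and 70.7% against 46.5, 48.8 and 36.7%, and ced-7, an engulfment transporter, had a difference of −20.6 points. The libraries came from whole animals of mixed stages. In them a different share of germline or of a stage cannot be told apart from a different choice of site within a cell. By RT-PCR of synchronized larvae and adults the paper saw no difference in atx-2 and panl-3 between the control and KIN17 strains. It proposes that the amount of germline in the mixed cultures had changed, which was not tested here. No expression values are in these tables, so that germline markers could not be read.

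**Figure D4:**
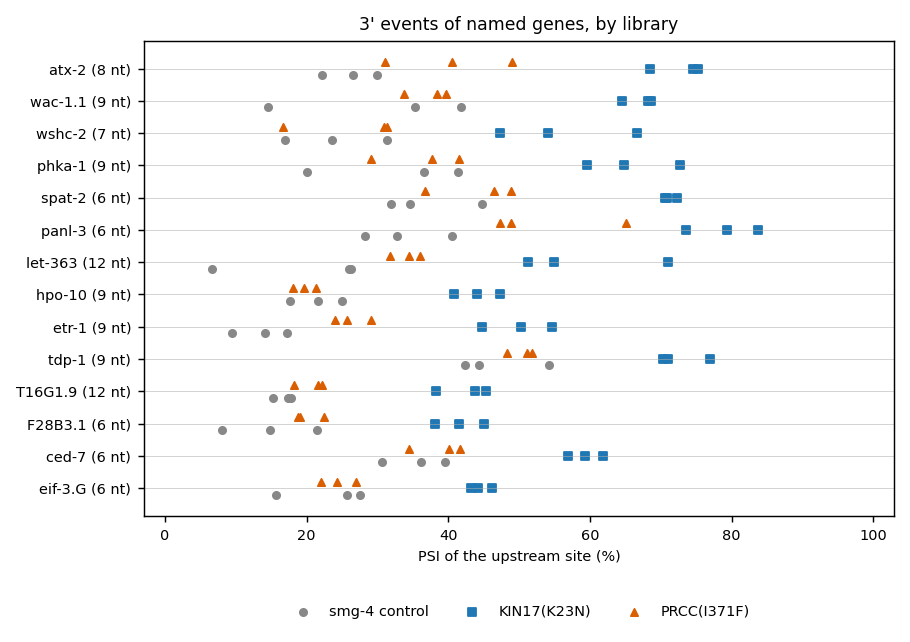
PSI of the upstream site in percent (x axis) of the 13 named 3' events that passed the pairwise rule, with panl-3 added (y axis, with the distance between the sites in nt). Each point is 1 library. In each of the 14 events the KIN17(K23N) libraries lie above the PRCC(I371F) libraries, and in hpo-10 and tdp-1, for example, PRCC(I371F) overlaps the control.

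The mean upstream PSI over all 3' events of a distance gave the same order. At 6 nt, over 1103 events, it was 47.5, 47.8 and 45.3% in KIN17(K23N), 41.4, 44.3 and 41.4% in PRCC(I371F) and 41.1, 38.7 and 40.7% in the control. At 9 nt it was 43.0 ± 0.89% and 39.9 ± 0.70% (SD, n = 3), and at 3 nt, where 784 events were measured, 75.7 ± 0.15% and 75.4 ± 0.25%. The strains did not overlap at 6 and 9 nt, each with an exact two-sided permutation p of 0.1, the smallest possible, and their ranges overlapped at 3 nt (exact p = 0.3). PRCC library 8 was the nearest to KIN17(K23N) at 6 nt.

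**Figure D5:**
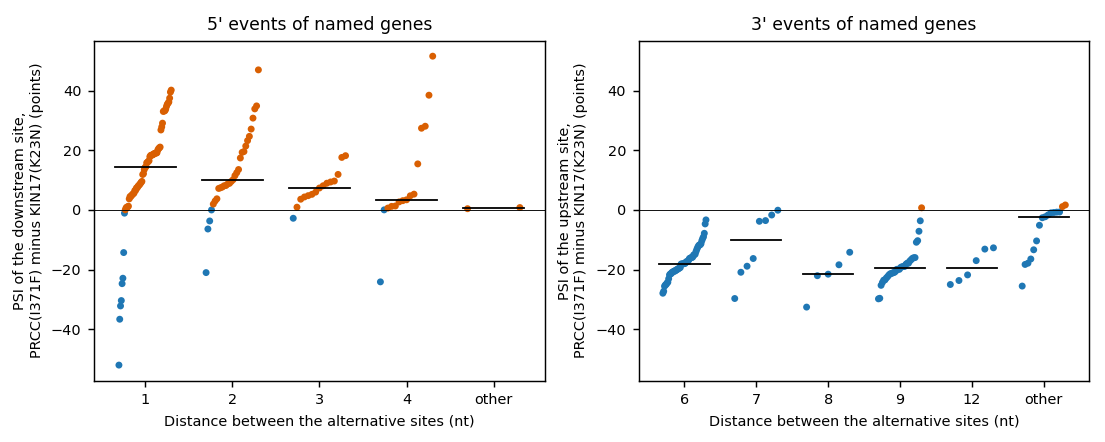
PSI difference, PRCC(I371F) minus KIN17(K23N), in percentage points (y axes) of each named 5' event (left, downstream site) and 3' event (right, upstream site), by the distance between the sites in nt (x axes). Each point is 1 event, sorted within its distance, and the black lines are medians. Of the 5' events 114 lie above 0, with pept-2 lowest at −52.02 points, and of the 3' events 119 lie below 0.

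At unc-73, whose allele differed between the strains, the 23-nt shift of the intron start that KIN17(M107I) showed at a mean of 85.8% was at 0% in all 6 libraries compared. Genotype fixed this 0%: in the paper the az30 change of SZ345 eliminates use of that site, and SZ346 carried no unc-73 mutation. The 23-nt event was taken as that of unc-73 because it was the single 5' event of this distance on chromosome I used in the strain with the az63 allele and in none of libraries 1 to 9. Its 0% in these libraries was thus also a condition of the choice. The 3' event of the same exons, with sites 1 nt apart, had 59.1, 66.7 and 76.9% in KIN17(K23N) and 100% in PRCC(I371F) and the control (limma adjusted p = 0.030). The paper describes e936az30 as leaving a /GU and a /UU 5' site 1 nt apart in this intron. PRCC(I371F) and the control did not carry this allele. Whether the 3' event stands for that pair of 5' sites was not tested, and the allele and the KIN17 mutation cannot be told apart there. The event was the third largest of the 3' calls higher in PRCC(I371F), and without it 12 of 20 3' calls were higher in KIN17(K23N). The larger ones were at chrV:13198481-13201275, at 0% in each KIN17(K23N) library against 50% in each PRCC(I371F) library, and at chrI:9102326-9102698, at 0% against 28.6, 33.3 and 50%.

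The largest limma calls higher in KIN17(K23N) at 3' sites also had few distinct values. At chrV:10054609-10054820 the upstream site was at 100% in each KIN17(K23N) library and at 0% in each PRCC(I371F) library. At chrV:18322740-18323195 it was at 100% against 63.6, 33.3 and 33.3%, and at chrV:9162541-9164978 at 100% against 33.3, 33.3 and 66.7%. The 3 control libraries of chrV:18322740-18323195 were at 100, 40 and 0%, a spread wider than the difference between the mutant means.

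Few annotated events differed, and most of those that did were higher in KIN17(K23N). The pairwise rule was passed by 17 of 2333 events (0.729%), 14 of them higher in KIN17(K23N), and limma called 1 of 1929 (0.0518%), while 340 had an unadjusted p under 0.05. They were 6 skipped exons, 4 retained introns, 4 alternative first exons and 3 alternative last exons, with no mutually exclusive or multiple skipped exons. The limma call was a first exon at chrV:10639847-10642452, at 100% in KIN17(K23N) and at 66.7, 60 and 60% in PRCC(I371F), with 66.7, 60 and 66.7% in the control. Fitted with all 15 libraries, 23 annotated events were called. With 1 library left out 20 to 46 events passed the rule, and limma called 6 without library 4, 7 without library 5, 2 without library 7 and 3 without library 8.

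The skipped exon with the largest difference, at chrV:10992687-10993416, was included at 33.3, 0 and 20% in KIN17(K23N) and at 62.5, 100 and 71.4% in PRCC(I371F), and the next, at chrX:2680804-2682350, at 100, 100 and 87.5% against 41.2, 63.6 and 28.6%. The retained introns at chrI:5970077-5970195 and chrI:8394745-8394989 were kept at means of 75.9 ± 25.1% and 57.6 ± 19.7% (SD, n = 3) in KIN17(K23N) and of 6.17 ± 10.7% and 15.8 ± 6.24% in PRCC(I371F). Their limma adjusted p-values lay between 0.14 and 0.26. The last exon events at chrI:535902-536673 and chrII:14400505-14401043 had the same values as 3' events with sites 6 nt apart that are among the 71 above. The chrII event also appeared as its mirror form, with the complementary values. Its differences were −26.1 and 26.1 points, so that it counted in both directions. The first exon at chrX:6590169-6592849 and the last exon at chrI:535902-536673 had differences of −30.015 and −28.7 points, both higher in KIN17(K23N).

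The control libraries took no part in these calls, and their level shows which mutant lay further from the control. Of the 87 5' events with a control value that passed the rule higher in PRCC(I371F), the control lay nearer KIN17(K23N) in 77, and it did so in 39 of 55 that were higher in KIN17(K23N). Its median distance was 5.56 points from KIN17(K23N) and 34.8 points from PRCC(I371F) in the first set. At the 47 3' events that passed the rule higher in KIN17(K23N) the control lay nearer PRCC(I371F) in 38, at a median of 6.90 points from PRCC(I371F) and 26.1 points from KIN17(K23N). The control mean lay outside both mutant means in 49 of the 87, in 15 of the 55 and in 23 of the 47 events. At these events both mutants lay on the same side of the control. So PRCC(I371F) mostly lay further from the control at these 5' events, and KIN17(K23N) at these 3' events, but the other mutant often differed from the control in the same direction.

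The other allele of each gene shared no library with this comparison. The authors listed sites over all libraries, however, those of the other alleles included. The limit from the listing of sites thus applies here too, and the shares are given as a description. At the 83 5' events higher in PRCC(I371F) by the rule and measured in both, PRCC(null) was above KIN17(M107I) in 70 (84.3%), by a median of 20 points, against 60.9% of all 14667 5' events tested that were measured in both. Of the 61 events higher in KIN17(K23N), KIN17(M107I) was above PRCC(null) in 43 (70.5%), against 35.8%. At the 3' events past the rule the other alleles did not part in this way: of 43 events higher in KIN17(K23N), KIN17(M107I) was above PRCC(null) in 18 (41.9%), against 44.1% of all. The few 3' limma calls went otherwise. Of 8 higher in KIN17(K23N), KIN17(M107I) was above PRCC(null) in 5 and below it in 1. Of 7 higher in PRCC(I371F), PRCC(null) was above in 5 and below in 1. In atx-2 the means were 57.0% in KIN17(M107I) and 58.3% in PRCC(null), and in T21H3.9 they were 21.5% and 36.4%.

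Intron length and chromosome were read for the called 5' events. The median intron was 57 nt in the 69 limma calls higher in PRCC(I371F), 49 nt in the 48 higher in KIN17(K23N) and 56 nt over all events tested. By the rule the medians were 64 and 50 nt. Called 5' events lay on all 6 chromosomes, at 0.54% of the events tested on III up to 0.97% on IV, where prcc-1 lies, and 0.75% on I, where dxbp-1 and unc-73 lie.

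The gene lists applied to the named events were short of members. All 6 events of the DNA replication and repair list, in atl-1, cdc-6, mrt-2, mus-101 and rad-54.L, had a higher downstream PSI in PRCC(I371F), with a median of 19.1 points, and 2 were called by limma, cdc-6 and rad-54.L. The 4 events of the muscle structure list, in lev-11 and unc-52, were also higher in PRCC(I371F), by a median of 6.78 points, and none was called. From the RNA processing list the polyadenylation factor gene cpsf-1 differed by 24.6 points at its 5' site and passed the rule alone, and panl-3 is given above. From the germline and meiosis list spe-39 was called and cosa-1 was not. Over all named 5' events 114 of 130 were higher in PRCC(I371F), unc-73 included, so that these lists had the direction of the named events as a whole.

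Between libraries of the same strain the mean absolute difference in PSI was 4.42 to 4.75 points for 5' events and 4.84 to 5.11 points for 3' events. Between the strains it was 5.25 to 5.74 and 4.94 to 5.95 points. The number of 5' events with a value was 18385 to 18577 in the KIN17(K23N) libraries and 18987 to 19196 in the PRCC(I371F) libraries.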

How the data were processed

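The authors trimmed the reads, aligned them to WS220/ce10 with a STAR version altered to score UU/AG introns like GU/AG introns, and derived PSI for each library. The submitters' notes also name cutadapt, Bowtie2 and SAMtools, with no versions. For each library the authors deposited 2 tables in which every form of an event has a score, its PSI as a fraction times 1000. These scores were the values used. A score pair at the ends of the scale was read as 0 or 100%, and elsewhere PSI was the included score over the sum of both, which are assumptions. For skipped, multiple skipped and mutually exclusive exons and for retained introns the 2 scores often add up to less than 1000. No read counts are given, so the depth and precision of a PSI are unknown and no count model or interval was used. All p-values measure the spread between RNA isolations of 1 strain each.

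Events with a PSI in the 6 libraries were compared by the study's pairwise rule, without its inspection by eye, and by limma 3.58.1 in R 4.3.3 on log2((PSI + 0.01)/(1 − PSI + 0.01)), with trend and robust options, leaving out events with 1 value throughout and adjusting within the 5', 3' and annotated classes. Both steps were also run on simulated data, with a known shift, the same assumed depth at every event and no spread between libraries beyond counting error. That run therefore says nothing on events of low or unequal depth. Gene names and sequences came from the study's list of affected introns, matched by ce10 position within 2 nt (248 of 256 lines), and names were updated with the RefSeq table of WBcel235, which held 206 of 214. The reference annotation is of another build and gave no coordinates. The event in lmd-1 was not analysed here. Named events were the 6 largest with a named gene and the 3 largest of any kind in each direction that both criteria called, the 2 largest of each annotated class that passed the rule, and the events of unc-73, T21H3.9, M60.6, spas-1, cec-10, atx-2 and panl-3. Events outside this choice are the further named introns of each sequence group, the other named 3' events that passed the pairwise rule and members of the gene lists. Some unnamed 5' events also lie outside it. As given above, these 3' events and the unnamed event with sites 3 nt apart were chosen after their values were seen. The comparison, the members and the gene lists were chosen with earlier results of these data known. Alternatives changed the thresholds, the events counted, the offset, the scale, the fit and the libraries.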

Additional observations from a re-analysis of the deposited data

How the results depend on the processing

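With each library left out in turn the pairwise rule passed 285 to 326 5', 138 to 209 3' and 20 to 46 annotated events, since fewer differences had to pass. limma called 2 to 142 5', 2 to 39 3' and 1 to 7 annotated events. In fits of all 15 libraries with 1 of the 6 left out, added after seeing the data, it called 99 to 109 5' events. Without libraries 4 to 9 in turn these fits called 8, 12, 55, 13, 42 and 18 3' events and 9, 15, 42, 20, 30 and 9 annotated events. The share of calls higher in PRCC(I371F) at 5' sites was 50 to 83.3%, and that higher in KIN17(K23N) at 3' sites 44.4 to 100%, turning to 44.4, 48.7 and 45% without libraries 4, 7 and 8. The causes were not tested.

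A smallest difference of 20 points left 120, 33 and 6 events in the 3 classes, and 10 points gave 121 3' and 34 annotated events. With a PSI required in all 15 libraries 121 5' events passed, and 7 annotated events did where the scores of both forms had to add up to nearly 1000. limma called 59 5' and 2 3' events on PSI itself, 4 3' events with an offset of 0.05, 37 3' and 23 annotated events in the fit of all 15 libraries, and 38 3' events with constant events kept. Without trend and robust options it called 33 3' and 3 annotated events, without a threshold on the mean 727, 35 and 3, and with p adjusted over all classes 33 3' and 5 annotated events. No difference of a named event changed sign with a library left out. The 23-nt unc-73 event was at 0 throughout, and events at 0 or 100% in every library of both strains could not move. No paired analysis was possible because the strains share no replicate numbers. Depth limits every value at 0 or 100%, because the reads are not given.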
